A study of Mus musculus with 6 samples.

Results

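The telomerase ribonucleoprotein is the enzyme that adds telomeric repeats to chromosome ends, and the transcripts described here are those of its RNA, its catalytic subunit and the proteins that assemble, stabilise and traffic it. They are the 8 genes Terc, Tert, Dkc1, Nop10, Nhp2, Gar1, Wrap53 and Naf1, found by symbol among the 55573 rows of a gene-level expression table, and where a symbol had several rows the one with the highest mean was kept. Terc is the only one with more than 1 row: it has 2, both at 0 in every library, and the row listed in the mouse gene annotation was taken. Tert, Dkc1, Nop10, Nhp2, Gar1, Wrap53 and Naf1 make polyadenylated messenger RNAs (7 of the 8), whereas the mature Terc RNA carries no poly(A) tail.

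The libraries are polyA RNA from mouse liver, from animals on normal feed, and they fall into 2 groups of 3. The libraries labelled p21TKO come from generation 3 mice of the genotype p21-/-mTR-/-Wrn-/-, and the libraries labelled DKO come from generation 3 mice of the genotype mTR-/-Wrn-/-. Both groups therefore carry the deletion of mTR, the mouse telomerase RNA gene Terc, and of Wrn, the RecQ helicase lost in Werner syndrome, and the comparison asks what changes in such livers when p21 (Cdkn1a), a cyclin-dependent kinase inhibitor induced by p53, is deleted as well. The labels give no library from mice with intact telomerase and do not say that each library is a separate animal, so a p-value here reflects how much single libraries vary, which may be technical.

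Telomerase copies a short template within its RNA onto the chromosome end by means of the reverse transcriptase Tert. The 3′ part of the RNA folds into an H/ACA domain, the same fold as in the small nucleolar and Cajal body RNAs that guide pseudouridylation, and it is bound by the same proteins: the pseudouridine synthase dyskerin (Dkc1), Nop10, Nhp2 and Gar1. Naf1 holds the place of Gar1 during assembly, and Wrap53 (also called TCAB1) binds the Cajal body box of the RNA and brings the particle to Cajal bodies. Most adult liver cells express little Tert, while the H/ACA proteins are housekeeping proteins of the nucleolus needed for ribosomal RNA modification whether or not telomerase RNA is present.

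The first 60 bases of the Terc RNA are shown because the template lies there and because this is the gene deleted in both groups. They are written as DNA, 5′ to 3′, from GRCm38 chr3:96414774-96414833 on the minus strand, starting at the RefSeq start of the RNA, with the template (bases 2 to 9) in capitals.
Terc: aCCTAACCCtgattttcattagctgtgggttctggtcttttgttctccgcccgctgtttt

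Of the 8 genes, Tert is the one whose groups did not overlap, so the 250 bases before its RefSeq start are shown as well. They lie at GRCm38 chr13:73626661-73626910 on the plus strand (RefSeq, GRCm38.p6), and the capitals mark the GC box CCGCCC, which starts 51 and 14 bases before the first base of the gene.
Tert: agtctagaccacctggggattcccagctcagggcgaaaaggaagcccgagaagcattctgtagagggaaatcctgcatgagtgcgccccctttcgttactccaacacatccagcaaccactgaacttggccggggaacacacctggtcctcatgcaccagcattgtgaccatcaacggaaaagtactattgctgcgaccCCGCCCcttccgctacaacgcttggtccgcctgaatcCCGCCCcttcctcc

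Searched on both strands, this window holds none of the E-box CACGTG, the cell cycle homology region TTTGAA, the E2F motif TTTNNCGC or CCAAT. Over 27025 RefSeq promoter windows of the same length, 32.9% hold a GC box, 6.05% an E-box, 16.3% the cell cycle homology region, 4.39% the E2F motif and 34.5% CCAAT. RefSeq promoters were matched for 6 of the 8 genes, Terc and Naf1 not among them. Nhp2 has 3 GC boxes and 3 CCAAT, the first of 2 Wrap53 promoters has 1 E-box and 2 CCAAT, and the windows of Dkc1, Nop10 and Gar1 hold none of the 5 motifs. A match of letters is a description and does not show binding.

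Values are FPKM, fragments per kilobase of exon scaled to the size of the library, so levels may be compared between genes. The read totals behind the FPKM values, recovered from their step sizes, ran between 19363285 and 27061290 per library. The hepatocyte markers marked the tissue as liver in every library, with a summed level of 51622 to 60325 FPKM in p21TKO and 40711 to 50574 FPKM in DKO libraries (7 of 8 markers in the table). The p21TKO libraries differed widely among themselves in neutrophil markers (24.5 to 551 FPKM, against 10.3 to 28.7 FPKM in DKO) and in acute phase genes (3324 to 37287 FPKM, against 4102 to 6800 FPKM in DKO). The summed levels of Kupffer cell markers (17.3 to 164 FPKM in p21TKO, 26.6 to 65.5 FPKM in DKO), endothelial markers (6.29 to 56.4 FPKM in p21TKO, 9.01 to 15.2 FPKM in DKO) and biliary markers (up to 27.3 FPKM in p21TKO, up to 18.5 FPKM in DKO) overlapped between the groups, although 4 of the 5 biliary markers (Krt19, Krt7, Epcam and Sox9) taken singly were higher in every p21TKO library. The sum of the stellate cell markers did not overlap (38.0 to 46.9 FPKM in p21TKO, 20.5 to 34.8 FPKM in DKO), but of its 5 genes only Lrat separated the groups. Cdkn1a had 1.41, 11.0 and 6.50 FPKM in p21TKO libraries 1, 2 and 3, against 0.761, 1.79 and 0.405 FPKM in DKO libraries 1, 2 and 3. The targeted gene was thus not lower in the libraries labelled p21TKO, and since the table sums each gene over its exons it cannot show whether the deleted stretch is missing: every direction below rests on the labels. Wrn averaged 0.239 ± 0.0349 FPKM in p21TKO and 0.256 ± 0.0518 FPKM in DKO (SD, n = 3 each). Y-linked transcripts were present in p21TKO library 1 and DKO libraries 2 and 3 only, so both groups mix sexes in unequal numbers.

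Terc (ENSMUSG00000064796, chr3:96414437-96414859, minus strand, 1 exon of 423 bases in GENCODE M21, GRCm38) was listed at 0 FPKM in all 3 p21TKO and all 3 DKO libraries. Both genotypes lack this gene per the labels, but the listed 0 does not check that, since other genes were at 0 for which no deletion is labelled. Of 8 other RNAs without a poly(A) tail, 4 were at 0 in every library, among them Rmrp, the RNA of RNase MRP, while Rn7sk was above 0 in all 6. Of 1096 genes whose exons lie wholly inside another gene's exons, 1093 (99.7%) were listed at 0 in every library. Among protein-coding genes these were 67 of 69 (97.1%), against 26.8% of the other protein-coding genes. The table gives Rmrp 2 rows, which overlap, and Terc 2 rows, of which the annotation used holds 1, and all 4 are at 0. The part of polyA selection or of such overlaps in the Terc value was not tested. The small RNAs that use the same proteins were also mostly unseen: of 52 Snora and Scarna genes, 33 were at 0 in every library, and between 8 and 15 were above 0 in any one library.

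Tert (ENSMUSG00000021611, chr13:73626911-73649843, plus strand, 16 exons), the reverse transcriptase, was the member with the lowest level above 0, and its level was lower in every p21TKO library than in every DKO library. It had 0.406, 0.236 and 0.116 FPKM in p21TKO libraries 1, 2 and 3, against 1.50, 0.819 and 1.08 FPKM in DKO libraries 1, 2 and 3. These levels rest on 45, 31 and 18 reads in the p21TKO libraries, against 207, 101 and 138 reads in the DKO libraries. The 95% counting intervals of the groups do not meet: the highest p21TKO bound is 0.543 FPKM and the lowest DKO bound 0.667 FPKM (exact Poisson, counting error only). The mean was 0.252 ± 0.145 FPKM in p21TKO and 1.14 ± 0.345 FPKM in DKO (SD, n = 3 each), a ratio of 0.222.

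That difference in Tert is larger than the spread within either group, but it did not pass a test across all genes. The exact two-sided permutation test over libraries gave p = 0.1, the smallest that 3 against 3 allows. Tert's mean over the 6 libraries is below 1 FPKM, the limit set for the main fit with limma. In fits added later so that it could enter, its difference (p21TKO minus DKO) was -0.76 on the log2(FPKM + 1) scale (SE 0.16, 95% interval -1.14 to -0.38, unadjusted p = 0.00217, adjusted p = 0.371, limma) and -2.34 on the log2 scale of recovered reads (SE 0.49, interval -3.49 to -1.18, unadjusted p = 0.00181, adjusted p = 0.349, limma voom). With a pseudocount of 0.1 it was -1.86 (adjusted p = 0.331, limma). In these 3 fits 0.052%, 0.0525% and 0.13% of all genes passed an adjusted p of 0.05, and 5.04%, 5.55% and 5.18% were lower in p21TKO with an unadjusted p below 0.05. Groups as separate as Tert's are not rare: 15.3% of the 15372 genes with a mean of at least 0.1 FPKM did not overlap, 8.26% being lower in p21TKO, and 1.14% were separate with a ratio at least as low.

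In 2 of the 3 added fits, 1 library decides the call on Tert. Without p21TKO library 1, which has the highest Tert level of its group, the adjusted p (limma) was 0.0557 on the log2(FPKM + 1) scale, 0.0401 with a pseudocount of 0.1 and 0.0270 on recovered reads. In those 3 fits without that library 3.46%, 3.78% and 6.29% of all genes passed an adjusted p of 0.05. The direction was the same without any 1 of the 6 libraries, and the adjusted p of the other leave-outs reached up to 0.918. Within the libraries that have Y-linked transcripts (1 p21TKO, 2 DKO) Tert's difference was -0.47 on the log2(FPKM + 1) scale, and within those that lack them (2 p21TKO, 1 DKO) it was -1.09.

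**Figure D1:**
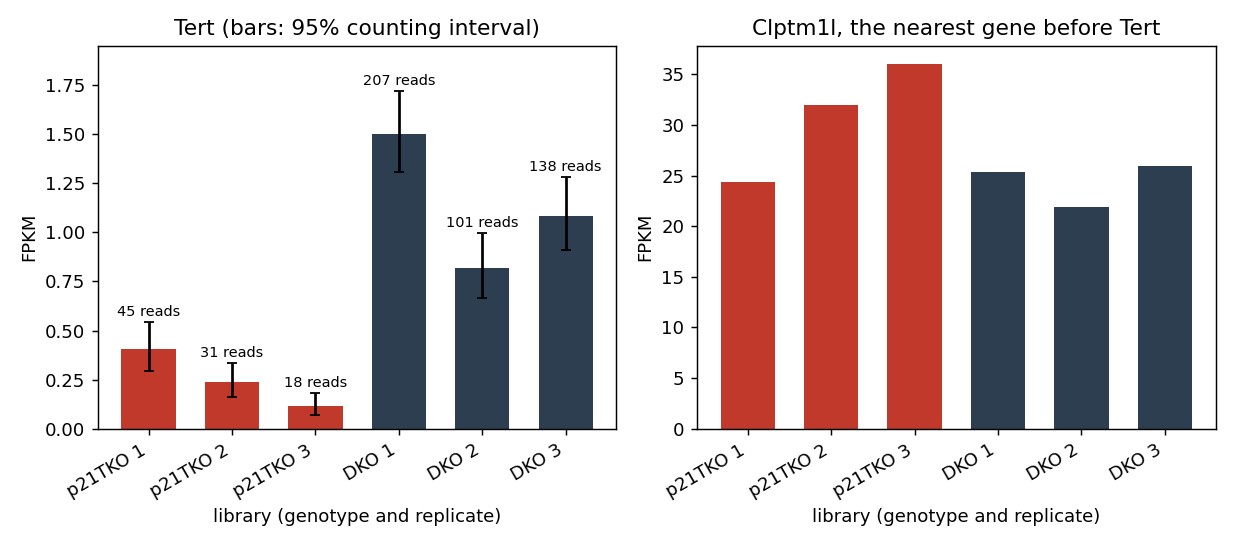
Left, Tert level (FPKM) in each library, p21TKO in red and DKO in dark blue, with the recovered read number above each bar and its 95% counting interval as the error bar. Right, the level of Clptm1l, the nearest gene before Tert on the same strand. All 3 p21TKO libraries lie below all 3 DKO libraries for Tert, while the groups overlap for Clptm1l.

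Clptm1l, which encodes a membrane protein and ends 6305 bases before Tert on the same strand, had 24.3, 32.0 and 36.0 FPKM in p21TKO libraries 1, 2 and 3, against 25.3, 21.8 and 26.0 FPKM in DKO libraries 1, 2 and 3. Its difference was 0.31 on the log2(FPKM + 1) scale (adjusted p = 0.634, limma), opposite in sign to Tert's. The neighbour on the other side, the transporter gene Slc6a18, was at 0 in every library. A BLAST search of the annotated transcripts found no near-identical copy of Tert.

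The markers of lymphocytes, cells that can express telomerase, were lower in p21TKO when summed, as Tert was. Their summed level was 0.778, 0.460 and 0.184 FPKM in p21TKO libraries 1, 2 and 3, against 1.34, 1.93 and 1.35 FPKM in DKO libraries 1, 2 and 3, so the groups did not overlap. Within p21TKO the marker sum and Tert both fell from library 1 to library 2 to library 3. Within DKO the order was the reverse of Tert's, with the highest marker sum in library 2, where Tert was lowest. The marker sums of DKO libraries 1 and 3 were nearly equal (1.344 and 1.349 FPKM), Tert being highest in library 1. All 5 markers were above 0 in some library and 3 of them (Cd3e, Cd3d and Nkg7) had groups that did not overlap. Those of the B cell genes Cd79a and Ms4a1 overlapped. Nkg7 had the highest mean (0.254 FPKM in p21TKO, 0.864 FPKM in DKO), while Cd3e averaged 0.0175 FPKM in p21TKO and 0.0862 FPKM in DKO. At such low levels none of the 5 markers entered the main fit. Of the defining ones, the T cell gene Cd3e and the B cell gene Cd79a were at 0 in p21TKO library 2 and the B cell gene Ms4a1 in p21TKO library 3. Of all genes with a mean of at least 0.1 FPKM, which leaves out Cd3e, 15.3% had non-overlapping groups, 8.26% being lower in p21TKO. In other cell types 4 of 5 biliary, 2 of 9 neutrophil and 1 of 5 stellate markers had them, all higher in p21TKO. No Kupffer cell or endothelial marker did. The hepatocyte sum was higher in p21TKO too, but its genes did not move together, Alb being higher and Apob lower in every p21TKO library. The part of these cell types in the Tert difference was not tested, and in bulk tissue fewer cells of a type and less RNA per cell cannot be told apart.

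The other 6 members had a mean of at least 1 FPKM and entered the main fit on log2(FPKM + 1). None of the 6 passed an adjusted p of 0.05 (limma), none had an unadjusted p below 0.05, and none was called on recovered reads (limma voom). In that fit 7 of 9538 genes passed (0.0734%), 3 higher and 4 lower in p21TKO. None of the 6 had groups that did not overlap, against 15.4% of all genes tested. All 6 fitted differences were above 0, with a median of 0.33, while 50.2% of all genes tested were above 0. In the plot of levels by library the groups interleave for each of these genes.

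**Figure D2:**
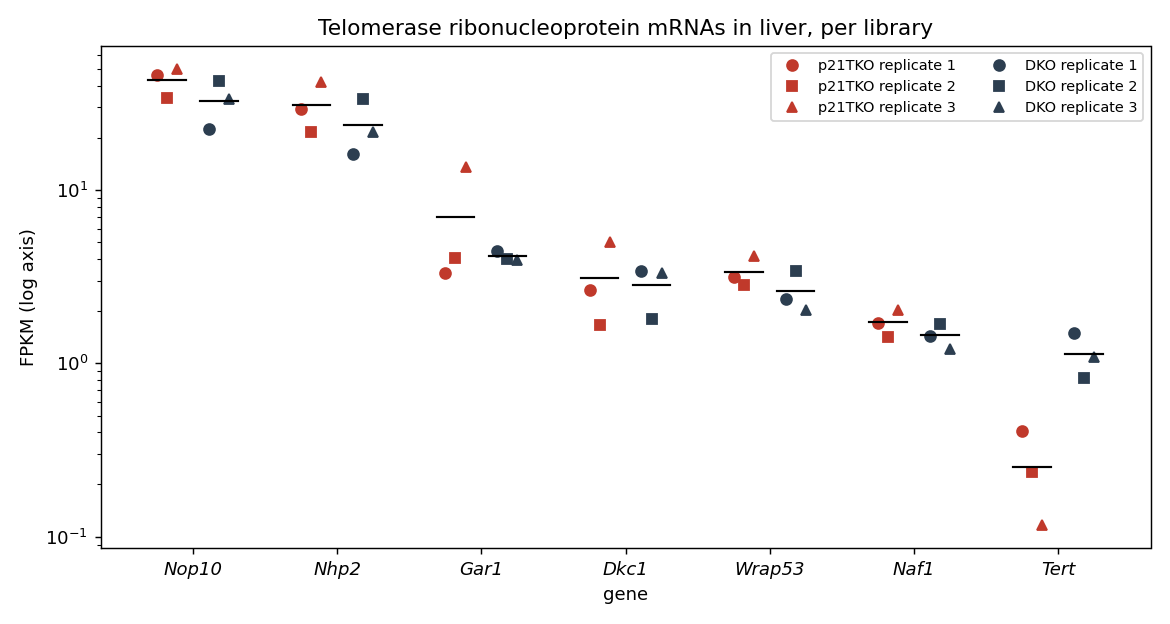
Level (FPKM, log axis) of the 7 telomerase mRNAs in each library, p21TKO in red left of DKO in dark blue, with the replicate number as the symbol and the group mean as the bar. Nop10 and Nhp2 have the highest group means and Tert the lowest, although Tert lies above Naf1 in DKO library 1. Tert is the one gene whose groups do not overlap.

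Dkc1 (ENSMUSG00000031403, chrX:75095854-75109777, plus strand), the pseudouridine synthase, had 2.66, 1.67 and 5.03 FPKM in p21TKO libraries 1, 2 and 3, against 3.42, 1.80 and 3.31 FPKM in DKO libraries 1, 2 and 3. The highest and the lowest library are both p21TKO. The difference was 0.047 (SE 0.33, 95% interval -0.75 to 0.84, adjusted p = 0.969, limma), and its sign changed to -0.27 without p21TKO library 3 and to -0.17 without DKO library 2. Dkc1 shares 45 exon bases with Mpp1 on the other strand, and a small nucleolar RNA within it, Gm25520, was at 0 throughout.

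Nop10 (ENSMUSG00000027133, chr2:112261926-112263269, plus strand), the small protein that joins dyskerin and Nhp2, was the most abundant member. It had 46.0, 33.9 and 50.1 FPKM in p21TKO libraries 1, 2 and 3, against 22.5, 42.3 and 33.4 FPKM in DKO libraries 1, 2 and 3. DKO library 1 was the lowest and DKO library 2 lay among the p21TKO values. The difference was 0.42 (SE 0.30, 95% interval -0.30 to 1.14, adjusted p = 0.634, limma).

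Nhp2 (ENSMUSG00000001056, chr11:51619735-51623714, plus strand), which contacts the RNA beside Nop10, was highest and lowest in the same libraries as Nop10. It had 29.2, 21.7 and 42.0 FPKM in p21TKO libraries 1, 2 and 3, against 16.1, 33.6 and 21.8 FPKM in DKO libraries 1, 2 and 3. The difference was 0.38 (SE 0.35, 95% interval -0.47 to 1.22, adjusted p = 0.715, limma), with overlapping groups. It shares 44 exon bases with Rmnd5b on the other strand.

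Gar1 (ENSMUSG00000028010, chr3:129824912-129831396, minus strand), which replaces Naf1 in the mature particle, had 3.31, 4.04 and 13.6 FPKM in p21TKO libraries 1, 2 and 3, against 4.44, 4.01 and 3.96 FPKM in DKO libraries 1, 2 and 3. Its level in p21TKO library 3, resting on 633 reads, stood apart from the other 5 libraries, which lay between 3.31 and 4.44 FPKM on 110 to 183 reads. The difference was 0.41 (SE 0.45, 95% interval -0.66 to 1.48, adjusted p = 0.753, limma) and turned to -0.14 without that library. The neighbouring gene Cfi, complement factor I, did not share the peak, with 191, 505 and 278 FPKM in p21TKO libraries 1, 2 and 3, against 321, 210 and 291 FPKM in DKO libraries 1, 2 and 3.

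Wrap53 (ENSMUSG00000041346, chr11:69561758-69580255, minus strand), the Cajal body factor, had 3.16, 2.83 and 4.18 FPKM in p21TKO libraries 1, 2 and 3, against 2.36, 3.40 and 2.03 FPKM in DKO libraries 1, 2 and 3. Only DKO library 2 overlapped the p21TKO values. The difference was 0.29 (SE 0.20, 95% interval -0.19 to 0.77, adjusted p = 0.625, limma). Its head-to-head neighbour 103 bases away is Trp53, the gene of p53, which in the p21TKO libraries had 2.68, 3.77 and 5.39 FPKM, against 2.72, 3.25 and 2.70 FPKM in the DKO libraries (difference 0.31, adjusted p = 0.631, limma).

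Naf1 (ENSMUSG00000014907, chr8:66860217-66890564, plus strand), the assembly factor, varied least among the libraries. It had 1.70, 1.42 and 2.04 FPKM in p21TKO libraries 1, 2 and 3, against 1.44, 1.70 and 1.21 FPKM in DKO libraries 1, 2 and 3. The groups overlapped and the difference was 0.15 (SE 0.16, 95% interval -0.23 to 0.53, adjusted p = 0.743, limma). A processed pseudogene of it, Gm2027, identical at 92.4% of 1559 aligned bases, held 9 reads over all libraries.

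**Figure D3:**
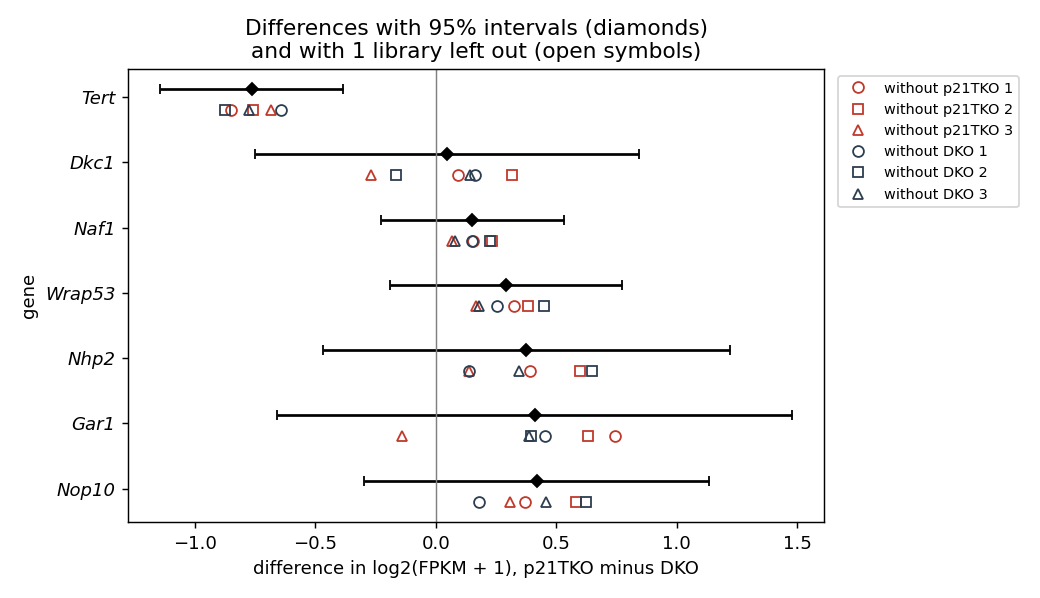
Difference per gene (p21TKO minus DKO, log2(FPKM + 1)) with its 95% interval from limma (black diamonds), and the same difference with 1 library left out (open symbols). Tert comes from the fit with the lower limit of 0.1 FPKM. Its interval lies below 0, those of the other 6 genes span 0, and the values for Dkc1 and Gar1 change sign without p21TKO library 3.

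The order of levels among the members was stable. Nop10 exceeded Nhp2 in 6 of 6 libraries, by a ratio between 1.19 and 1.57, although the ranges of the 2 genes overlap within each group. Nhp2 exceeded Gar1 in 6 of 6 libraries, by a ratio of at least 3.08, and Gar1 exceeded Dkc1 and Wrap53 in all 6. Dkc1 and Wrap53 did not separate, Dkc1 being higher in 3 of 6 libraries. Naf1 lay below both in all 6 libraries and above Tert in 5, the exception being DKO library 1. The proteins of the H/ACA core are thus served by unequal mRNA levels: Nop10 was between 6.57 and 23.5 times Dkc1, per length. The ratio of Dkc1 to Tert was 6.55, 7.09 and 43.3 in p21TKO libraries 1, 2 and 3, against 2.28, 2.20 and 3.05 in DKO libraries 1, 2 and 3, which restates Tert's lower level.

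All 6 tested members had their highest level in p21TKO library 3, whereas Tert had its lowest there. Among all 9538 genes tested, 23.1% were highest in that library. The lowest library differed between members: p21TKO library 1 for Gar1, p21TKO library 2 for Dkc1, DKO library 1 for Nop10 and Nhp2, and DKO library 3 for Wrap53 and Naf1. After centring each gene on its mean over the libraries, the median of the 6 members on the log2(FPKM + 1) scale was 0.076, -0.17 and 0.54 in p21TKO libraries 1, 2 and 3, against -0.17, 0.12 and -0.24 in DKO libraries 1, 2 and 3. Without p21TKO library 3 the median difference between groups was 0.10, against 0.33 with all libraries.

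**Figure D4:**
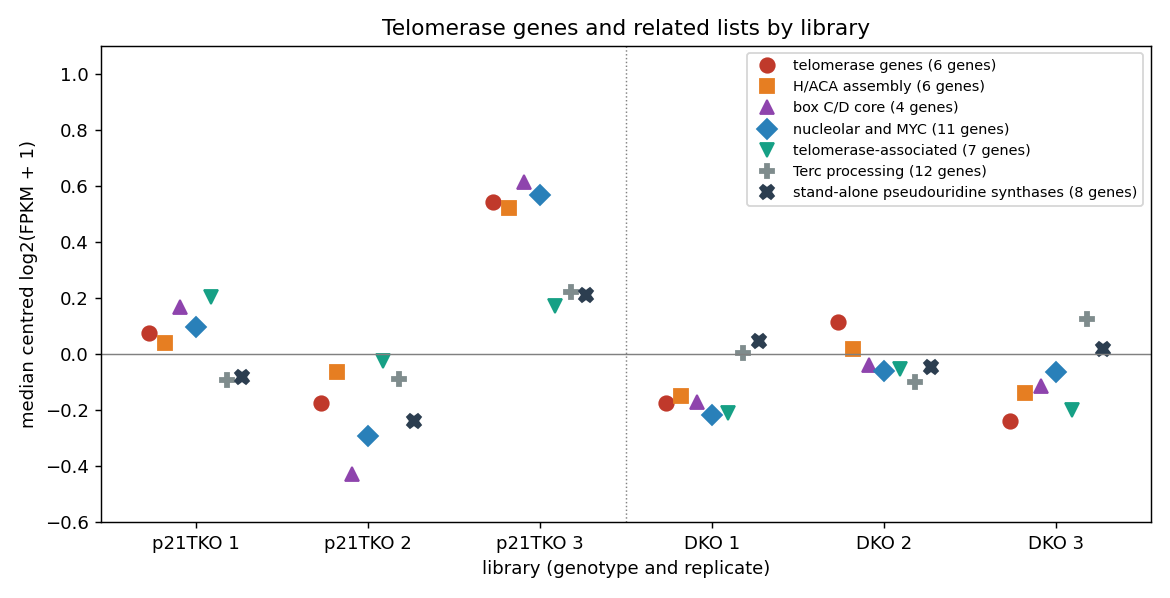
Median over the tested genes of each list of log2(FPKM + 1), each gene centred on its mean over the 6 libraries, per library. The telomerase genes, H/ACA assembly, box C/D core and nucleolar lists lie between 0.52 and 0.61 in p21TKO library 3, and the other 3 lists between 0.17 and 0.22.

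Genes of the surrounding pathway gave no call in the main fit: 0 genes passed in any of the 7 lists, either way, also on recovered reads (limma voom), and 1 of the 50 genes tested, Gnl3l, had an unadjusted p below 0.05 (limma), against 9.38% of all genes tested. Of the H/ACA assembly factors, which load dyskerin and its partners, 6 of 8 were tested, 4 above and 2 below 0, with a median difference of 0.20. Smn1, the survival motor neuron protein, had the smallest p there (difference 0.42, adjusted p = 0.546, limma), followed by the R2TP subunit gene Rpap3 (difference -0.52, adjusted p = 0.584, limma). The box C/D core, the sister family that guides ribose methylation, had 4 of 4 above 0 with a median of 0.16, led by Snu13 (0.43, adjusted p = 0.580, limma) and Nop56 (0.28, adjusted p = 0.848, limma). The stand-alone pseudouridine synthases, which need no guide RNA, had 3 above and 5 below 0 and a median of -0.041, with Pus10 at -0.33 (adjusted p = 0.576, limma) and Pusl1 at -0.17 (adjusted p = 0.735, limma).

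Of the Terc processing genes, which trim, cap or degrade the RNA, 12 of 14 were tested, 7 above and 5 below 0, with a median difference of 0.021. Ncbp1, a cap-binding subunit, had the smallest p (0.43, adjusted p = 0.573, limma), and Exosc10, a nuclear exosome nuclease, the next (0.34, adjusted p = 0.590, limma). Exosc10 was higher in every p21TKO library than in every DKO library, and 1 other gene of the list was lower. Over all genes tested, 15.4% had groups that did not overlap. Of the telomerase-associated genes 7 of 12 were tested, 6 above and 1 below 0, with a median of 0.23. The nucleolar GTPase Gnl3l had 2.74, 3.51 and 4.44 FPKM in p21TKO libraries 1, 2 and 3, against 2.16, 2.39 and 2.36 FPKM in DKO libraries 1, 2 and 3. Its groups did not overlap, yet it did not pass (difference 0.45, unadjusted p = 0.0372, adjusted p = 0.523, limma). Smg5, a factor of nonsense-mediated decay, followed (0.23, adjusted p = 0.618, limma). Stn1 averaged below 1 FPKM and did not enter the main fit, but its groups did not overlap. Its mean was 0.514 ± 0.142 FPKM in p21TKO and 0.309 ± 0.0378 FPKM in DKO (SD, n = 3 each). Of all genes with a mean of at least 0.1 FPKM, 15.3% had groups that did not overlap. With no filter on low values Stn1 was not called, but that fit called only 1 of 24082 genes.

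The nucleolar and MYC list, chosen because dyskerin and its partners are growth genes, had 9 genes above and 2 below 0 and a median of 0.28. The ribosome assembly genes Bop1 (0.55, adjusted p = 0.523, limma) and Pes1 (0.35, adjusted p = 0.665, limma) had its smallest p-values. Of the proliferation genes only 2 of 11 reached 1 FPKM, both above 0: Pcna, the replication clamp (0.40, adjusted p = 0.580, limma), and Mcm7, a helicase subunit (0.33, adjusted p = 0.647, limma). Mcm6, below that limit, had 0.398, 1.35 and 1.46 FPKM in p21TKO libraries 1, 2 and 3, against 0.161, 0.0996 and 0.0386 FPKM in DKO libraries 1, 2 and 3. It alone of the 11 had non-overlapping groups, against 15.3% of all genes with a mean of at least 0.1 FPKM. With no filter on low values Mcm6 was not called. That fit called only 1 of 24082 genes, so the lack of a call says little about Mcm6.

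The genes whose profile over the 6 libraries was most like that of a member were taken as those with the smallest root mean square difference of centred log2(FPKM + 1) values. Gar1 was nearest to Nle1 (0.106), a ribosome assembly gene, and to the cold-inducible gene Cirbp (0.114), which had 3.33, 4.50 and 16.5 FPKM in p21TKO libraries 1, 2 and 3, against 5.03, 5.50 and 4.75 FPKM in DKO libraries 1, 2 and 3. Both share the high value in p21TKO library 3. Nop10 was nearest to Zfp750 (0.0475) and Tmem214 (0.0774), and Nhp2 to Mrps28 (0.107) and, like Nop10, Zfp750 (0.125). Dkc1 was nearest to Zfp330 (0.147) and the pseudogene Rpl30-ps8 (0.155). Wrap53 was nearest to G6pc3 (0.0372) and Faap24 (0.0373), and Naf1 to Isy1 (0.0244) and Stx3 (0.0400). With 6 libraries and 9538 genes some close profile is found for any gene.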

How the data were processed

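Gene-level FPKM in 3 p21TKO and 3 DKO liver libraries were analysed as deposited by the authors in 1 table of 55573 genes. The tools were DESeq2 1.20.0, featureCounts 1.5.0-p3 and HISAT2 2.0.5, with fastp and CASAVA 1.8, per the submitters' processing notes. These notes name human builds although the gene IDs are mouse, so positions and exon lengths were taken from GENCODE M21 (GRCm38), which holds 55480 of the IDs. RNA was extracted with TRIzol and libraries made with a NEBNext Ultra kit, per the labels' protocols; no source used here states whether the kit kept the strand.

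With those lengths between 99.29% and 99.33% of the FPKM values above 0 came out as whole reads within 0.02 reads. The main test was limma 3.58.1 (R 4.3.3) with an intensity trend on log2(FPKM + 1), two-sided, for the 9538 genes averaging 1 FPKM or more, with Benjamini-Hochberg adjustment and a threshold of 0.05. A pseudocount of 1 understates the change of low genes such as Tert. Fits with a mean of at least 0.1 FPKM, with a pseudocount of 0.1, and with voom on recovered reads (10 reads in 3 libraries, on TMM scaling) were added after the data were seen. Scripts were tested on simulated data. Near-identical copies were searched with BLAST 2.17.0.

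The members and gene lists were chosen with earlier results of these data known, and no list was tested as a set. Named are the 8 members, the targeted genes, the 2 genes of smallest p in each list without a call, the 2 nearest profiles per tested member and neighbouring genes. Mcm6 and Stn1 are named because their groups did not overlap below the limit of the main fit. Myc is named because its list bears its name. Of the near-identical copies only that of Naf1 is named. Those of Dkc1, Gar1 and Nhp2 held at most 6 reads each over all libraries. Marker genes were chosen to describe other cells of the tissue, and 1 lymphocyte marker of the original list is not reported here or included in the sum.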

Additional observations from a re-analysis of the deposited data

How the results depend on the processing

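Per gene, every tested alternative (other scalings, filters and pseudocounts, no trend, voom, the term for Y-linked transcripts, the replicate block, 1 library left out) kept the direction of Nop10, Nhp2, Wrap53 and Naf1. Tert, tested in the fits with lower filters, also kept its direction, and with other scalings or no trend, added after the data were seen, its adjusted p (limma) lay between 0.316 and 0.453. The sign of Dkc1 turned to -0.034 with the term for Y-linked transcripts, -0.27 without p21TKO replicate 3 and -0.17 without DKO replicate 2, and that of Gar1 to -0.14 without p21TKO replicate 3; the cause was not tested. With 1 library left out Dkc1 ran between -0.27 and 0.32 and Gar1 between -0.14 and 0.74. No member was called except Tert, the 1 member called without p21TKO replicate 1 in 2 of the added fits, at -2.16 with a pseudocount of 0.1 and -2.76 on recovered reads, where 581 of 15390 and 825 of 13121 genes were called; its adjusted p (limma) lay between 0.0270 and 0.918 over all alternatives. No gene of the related lists was called under any of the 16 alternatives run. The median difference of the tested members ran between 0.10 and 0.48 with 1 library left out and between 0.26 and 0.43 otherwise.

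The count of genes called, 7 in the main fit, was 1 with no filter on low values, 4 with a mean FPKM of at least 5, 1 with voom on recovered reads, 20 with the lower filter and a pseudocount of 0.1, and 0 with the replicate block (limma, 588 genes at an unadjusted p under 0.05). Leaving out 1 library gave between 1 and 506 genes, the 506 (233 higher, 273 lower) without p21TKO replicate 1 and 1 to 4 without any other library. Same-numbered libraries deviated from their group means with correlations of -0.44, -0.49 and -0.07 across genes, and no library correlated best with its own number. These values cannot decide whether the replicate numbers pair the libraries, because deviations from a group mean cancel within the group, which forces correlations of both signs. The highest values, 0.44 each, joined p21TKO replicate 1 to DKO replicate 2, both with Y-linked transcripts, and p21TKO replicate 2 to DKO replicate 1, both without. Y-linked status was not taken out of these correlations. With the block and the lower filter, Tert's difference was -0.76 (adjusted p = 0.727, limma). With 18 to 45 reads of Tert in the p21TKO libraries, its level there is known only within the counting intervals given.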
